A study of Homo sapiens with 8 samples.

Results

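Chromatin accessibility around the epidermal differentiation complex and the neighbouring S100 genes was examined in 8 ATAC-seq peak lists from H1975 and HCC44, 2 cell lines from human lung cancers. The members were the protein-coding genes of chromosome 1 whose symbols start with S100A, SPRR or LCE, together with FLG, FLG2, HRNR, RPTN, TCHH, IVL and CRNN. This rule gave 53 of the 20033 protein-coding genes on the main chromosomes in RefSeq: 16 S100A genes, 19 LCE genes, 11 SPRR genes, 6 genes of the S100 fused type and IVL. Every peak within 50 kb of a member (GRCh38) was assigned to the nearest one. Over the 8 lists these peaks merged into 74 regions, and 27 members had at least 1 peak assigned in at least 1 sample.

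The samples had been exposed to ACBI1 at a labelled dose of 1 mM, or to its solvent DMSO, over 96 h, and each of the 4 groups held 2 samples. ACBI1 is a small molecule that recruits an E3 ubiquitin ligase to PBRM1 and to the motor subunits of SWI/SNF nucleosome remodellers, SMARCA2 and SMARCA4, and so leads to their degradation. The dose is printed as the labels give it; it is high for a compound of this kind, and its unit could not be checked. Both lines are labelled wild type, and each is a single cell line. Nothing in the labels says whether replicates were separate cultures, so the spread between them may be technical. In both lines KRT8, KRT18 and EPCAM, markers of epithelial cells, had a listed peak at a start site in all samples, as did VIM, a mesenchymal marker. CDH1, also epithelial, had one in all but 1 of the 2 ACBI1 samples of HCC44, whereas SFTPB, a surfactant gene of the lung, and PTPRC, a blood cell marker, had none in any sample. NKX2-1, a lineage factor of lung epithelium, had one in the 2 DMSO and 2 ACBI1 samples of H1975, in 1 DMSO sample of HCC44 and in no ACBI1 sample of HCC44. KRT5, a keratin of basal squamous epithelium, had one in all 4 DMSO samples and in no ACBI1 sample, and its partner KRT14 had none in any sample; whether a change in cell type moved with treatment was not tested.

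The epidermal differentiation complex is a cluster of genes that are switched on together when keratinocytes of the epidermis finish their differentiation. IVL encodes involucrin, an early scaffold of the cornified envelope, and the SPRR (small proline-rich) and LCE (late cornified envelope) proteins are cross-linked onto it by transglutaminases. The fused-type genes (FLG, FLG2, HRNR, RPTN, TCHH and CRNN) encode large repeat proteins with an S100-like calcium-binding domain at one end. S100 proteins are small EF-hand calcium sensors, and unlike the envelope genes many of them are made in simple epithelia and in carcinomas.

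The promoters of 5 members show the contrasts that the peak lists drew within the cluster. Each is the 250 bases before the RefSeq start on GRCh38.p14, printed 5′ to 3′ on the gene's own strand in lower case. Capitals mark matches on either strand to TGANTCA (the AP-1 motif), GGAATG (TEAD), GGGCGG (the GC box) and TATAAA (the TATA box). S100A12 (chr1:153375622-153375871, minus strand) and S100A3 (chr1:153549259-153549508, minus strand) had a start-site peak with DMSO that was absent with ACBI1. S100A2 (chr1:153565845-153566094, minus strand) and S100A6 (chr1:153535992-153536241, minus strand) had one in all 8 samples, and SPRR1B (chr1:153030953-153031202, plus strand) had one in a single sample.
S100A12: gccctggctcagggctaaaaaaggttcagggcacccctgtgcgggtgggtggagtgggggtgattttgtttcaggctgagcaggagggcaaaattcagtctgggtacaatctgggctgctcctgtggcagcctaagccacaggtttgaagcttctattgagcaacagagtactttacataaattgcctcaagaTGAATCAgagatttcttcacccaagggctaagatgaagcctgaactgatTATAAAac
S100A3: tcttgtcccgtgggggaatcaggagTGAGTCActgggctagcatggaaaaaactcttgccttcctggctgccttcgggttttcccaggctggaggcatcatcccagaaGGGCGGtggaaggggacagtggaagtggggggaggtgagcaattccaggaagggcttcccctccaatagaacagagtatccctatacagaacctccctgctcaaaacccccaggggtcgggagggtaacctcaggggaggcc
S100A2: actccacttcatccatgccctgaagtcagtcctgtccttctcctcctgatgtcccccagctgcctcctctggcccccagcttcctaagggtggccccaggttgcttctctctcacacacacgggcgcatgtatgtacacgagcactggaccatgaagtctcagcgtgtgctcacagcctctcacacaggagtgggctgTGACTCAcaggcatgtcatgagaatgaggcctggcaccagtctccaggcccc
S100A6: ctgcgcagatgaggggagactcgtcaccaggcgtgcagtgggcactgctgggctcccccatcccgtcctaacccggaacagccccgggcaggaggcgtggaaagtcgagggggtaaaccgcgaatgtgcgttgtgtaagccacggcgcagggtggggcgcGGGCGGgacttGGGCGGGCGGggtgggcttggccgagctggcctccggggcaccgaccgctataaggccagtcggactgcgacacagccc
SPRR1B: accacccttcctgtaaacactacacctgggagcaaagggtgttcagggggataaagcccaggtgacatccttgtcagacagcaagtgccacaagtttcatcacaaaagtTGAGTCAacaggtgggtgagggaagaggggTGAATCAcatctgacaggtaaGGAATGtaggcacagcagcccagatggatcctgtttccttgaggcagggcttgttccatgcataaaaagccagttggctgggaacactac

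The S100A12 stretch held 1 AP-1 match, 57 bases before the start, and a TATA match 8 bases before it. The S100A3 stretch held 1 AP-1 match 225 bases before the start and 1 GC box 142 bases before it. In S100A2 the AP-1 match lay 52 bases before the start, and no other motif was found. S100A6 had 3 GC boxes, 90, 79 and 75 bases before the start, the last 2 overlapping, and 24 CpG dinucleotides, against 1 in S100A12, 4 in S100A3, 4 in S100A2 and 0 in SPRR1B. SPRR1B held 2 AP-1 matches, 141 and 111 bases before the start, and a TEAD match at 90. Such matches describe the letters of these windows and do not show that a factor binds there.

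The deposited lists held between 22133 and 50347 peaks. In H1975 the DMSO lists had 43525 and 41027 peaks and the ACBI1 lists 27682 and 22133. In HCC44 the DMSO lists had 50347 and 49945 peaks and the ACBI1 lists 26313 and 24862, so that all ACBI1 lists were shorter. A peak that is missing from a list shows that no peak was listed there, not that the chromatin was closed. Read depth is unknown, and whether depth or library quality moved with treatment was not tested.

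Listed peaks covered the S100A ends of the cluster and a few points between them. Per Mb of sequence within 50 kb of a member (1.70 Mb in all), the DMSO lists held 30.1 and 29.5 peaks in H1975 and 24.8 and 28.9 in HCC44. The same measure over the windows of all protein-coding genes was 20.2 and 19.2 for H1975 and 23 and 22.9 for HCC44. The S100A genes took 31 and 33 of the 51 and 50 neighbourhood peaks of the H1975 DMSO samples, and 31 and 32 of the 42 and 49 of the HCC44 DMSO samples. Of the 26 members with no assigned peak in any sample, 16 were LCE genes, 5 were SPRR genes and 5 were S100A genes. The map of listed peaks along the cluster shows this arrangement in all 8 samples.

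**Figure D1:**
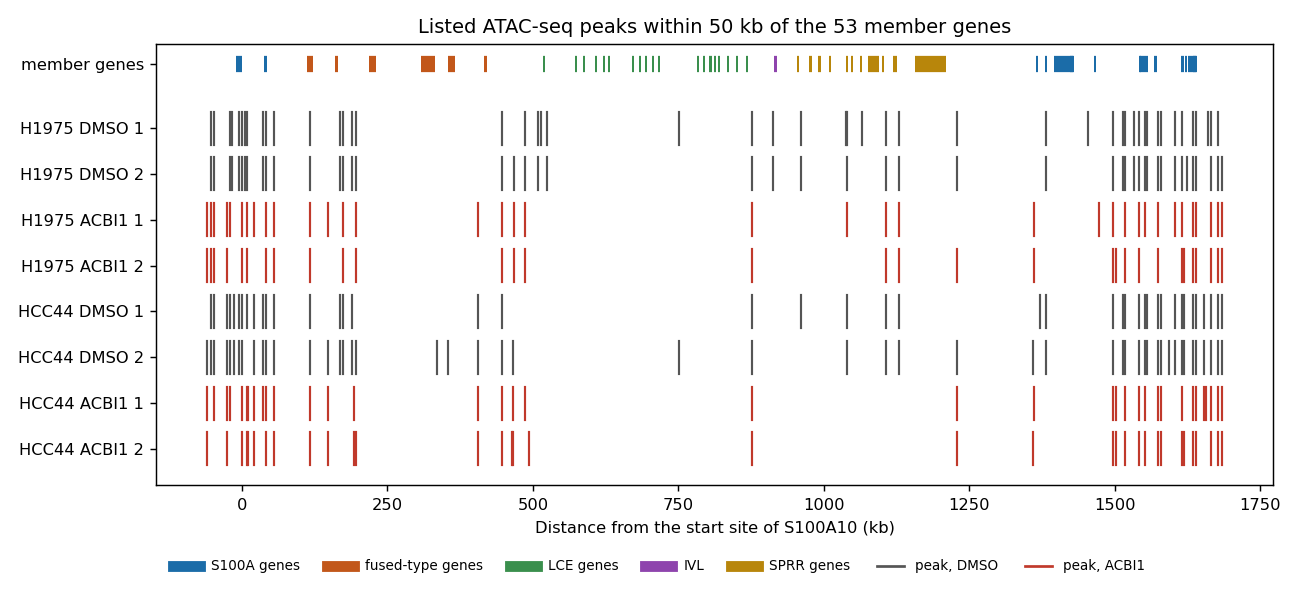
Peaks within 50 kb of a member gene in each of the 8 lists, drawn at their midpoints against the distance from the start site of S100A10 in kb; the top row shows the member genes coloured by group, grey lines are DMSO and red lines ACBI1 samples. Peaks crowd at the S100A10 and S100A6 to S100A13 ends, and all LCE genes but LCE5A lie in 2 stretches with no listed peak.

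The longest stretch with no listed peak in any of the 8 lists ran for 227.58 kb (chr1:152517788-152745367) and held 10 LCE genes, from LCE3E to LCE4A. A second stretch of 124.195 kb (chr1:152745755-152869949) held 8 further LCE genes, LCE1A to LCE1F, LCE6A and LCE7A. Another empty stretch of 137.976 kb held HRNR and FLG. A stretch of 76.3 kb held SPRR4, SPRR1A and SPRR3. The single LCE gene outside these stretches was LCE5A.

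The number of neighbourhood peaks was lower with ACBI1 in both lines, but less so than the lists as a whole. In H1975 there were 51 and 50 neighbourhood peaks with DMSO against 38 and 34 with ACBI1. In HCC44 there were 42 and 49 with DMSO against 37 and 34 with ACBI1. The treatments did not overlap in either line. The mean went from 50.5 ± 0.707 to 36 ± 2.83 peaks in H1975 (SD, n = 2 and 2), a log2 difference of -0.49. In HCC44 it went from 45.5 ± 4.95 to 35.5 ± 2.12 peaks (SD, n = 2 and 2), a log2 difference of -0.36. The mean of the 2 differences was -0.42, against a spread of 0.11 between replicates on the log2 scale, and an exact two-sided permutation test within lines gave p = 0.0556, the smallest that its 36 arrangements can give. Within 1 line no exact test could go below p = 0.333. Whole lists differed by -0.77 in H1975 and -0.97 in HCC44 (log2 of the number of peaks).

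Because all lists were shorter with ACBI1, the share of each list was compared as well. The neighbourhood held 0.117% and 0.122% of the peaks with DMSO against 0.137% and 0.154% with ACBI1 in H1975. In HCC44 it held 0.0834% and 0.0981% with DMSO against 0.141% and 0.137% with ACBI1. All 4 ACBI1 values lay above all 4 DMSO values. The mean difference was 0.0369 percentage points, with a spread of 0.00806 between replicates (exact permutation p = 0.0556, again the smallest possible, n = 2 per group). It was 0.0158 points when only peaks with a fold enrichment of at least 5 were counted, and 0.0136 with equal list lengths (exact permutation p = 0.111 for each). When every list was cut to its 22133 peaks of highest -log10 q, the direction of the count turned: neighbourhood peaks were then higher with ACBI1, by 0.067 in H1975, 0.23 in HCC44 and 0.15 over both lines on the log2 scale (exact permutation p = 0.111 over both lines).

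The lower counts came from peaks close to the genes. Within 10 kb of a member the H1975 samples had 36 and 35 peaks under DMSO, against 22 and 18 under ACBI1. The HCC44 samples had 28 and 28 under DMSO, against 17 and 16 under ACBI1. At 10 to 50 kb the numbers were 15 and 15 under DMSO, against 16 and 16 under ACBI1, in H1975. In HCC44 they were 14 and 21, against 20 and 18. Only the nearer peaks separated the treatments in both lines. The log2 difference was -0.80 within 10 kb (exact permutation p = 0.0556) and 0.12 from 10 to 50 kb (exact permutation p = 0.444, spread 0.21 between replicates). Over all protein-coding genes, with distance taken to the nearest gene of any kind, the differences were -0.72 and -1.09. Near the members the difference was close to that over all genes. At 10 to 50 kb the members' peaks were about as many with ACBI1 as with DMSO, but here the sets are unlike. For the members the distance was to the nearest member. Their peaks at 10 to 50 kb thus included the start sites of SNAPIN, ILF2 and NPR1, which are no members. Over all genes such peaks counted as within 10 kb. As a share of the list, peaks from 10 to 50 kb were higher with ACBI1 by 0.0344 percentage points (exact permutation p = 0.0556). Peaks within 10 kb went in opposite directions in the lines, by -0.0036 points in H1975 and 0.0086 in HCC44 without overlap, with a mean of 0.0025 (exact permutation p = 0.333). This split by distance was chosen after the data were seen. The plot of counts near to and far from the members shows the samples.

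**Figure D2:**
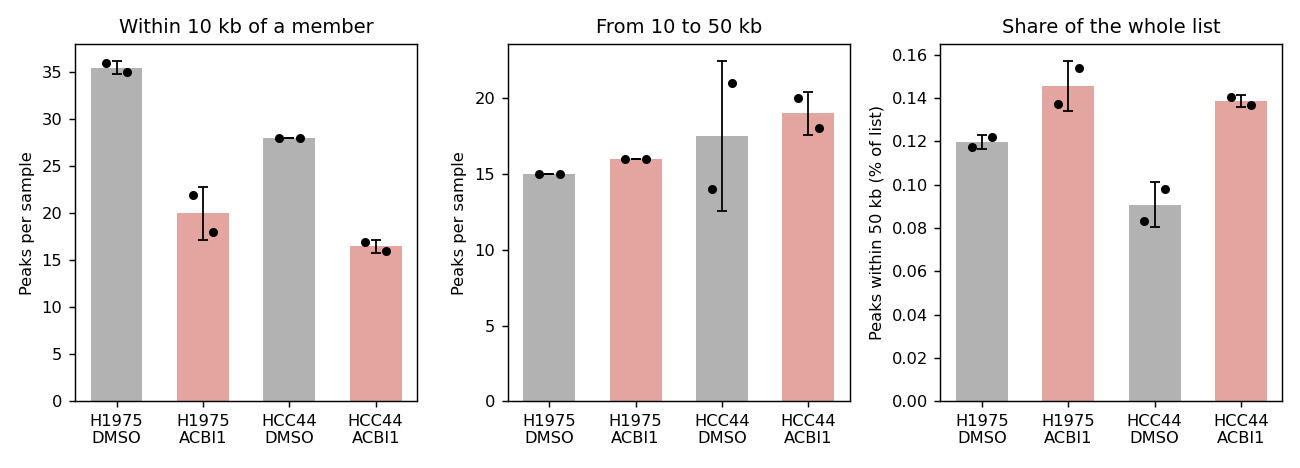
Peaks within 10 kb of a member gene, peaks from 10 to 50 kb, and peaks within 50 kb as a percentage of the whole list; points are the 2 samples of a group, bars their mean and error bars the SD. Within 10 kb every ACBI1 sample lies below every DMSO sample of its line, and the share of the list is higher in all 4 ACBI1 samples.

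At start sites (within 1 kb of a RefSeq start of any protein-coding gene) the counts were also lower with ACBI1, and here the share was lower too. The neighbourhood held 13 and 13 such peaks with DMSO against 11 and 11 with ACBI1 in H1975, and 14 and 14 with DMSO against 11 and 12 with ACBI1 in HCC44. As a share of all start-site peaks the neighbourhood changed by -0.0133 percentage points with ACBI1 over both lines (exact permutation p = 0.0556). As a share of all other peaks it was higher by 0.0709 percentage points (exact permutation p = 0.0556). Within a line, regions listed with DMSO in both replicates and with ACBI1 in none are termed lost, those with the opposite pattern gained, and those in all 4 lists retained. Of 45 neighbourhood regions with DMSO in H1975, 16 were lost (35.6%) and 24 retained, against 37.2% lost over the whole genome. Of 39 in HCC44, 13 were lost (33.3%) and 21 retained, against 49.2% lost over the genome.

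Regions at and away from start sites stood on opposite sides of the genome's share. Away from start sites 14 of 33 regions were lost in H1975 (42.4%, against 51.3% in the genome) and 11 of 25 in HCC44 (44%, against 63.9%). At start sites 2 of 12 were lost in H1975 (16.7%, against 3.35%) and 2 of 14 in HCC44 (14.3%, against 6.56%). With so few regions a single one moves these shares widely. The start-site regions counted here include those of SNAPIN and ILF2 in both lines and of NPR1 in HCC44. These genes are no members, and their regions were retained. Gained regions numbered 3 of the 29 held by both ACBI1 samples in each line (10.3%), against 3.07% and 5.89% in the genome. All of them lay away from start sites. There they were 3 of 19 in H1975 (15.8%, against 5.64% in the genome) and 3 of 18 in HCC44 (16.7%, against 10.4%). At start sites no region was gained in either line, against 0.559% and 0.8% in the genome. The bar plot of lost and gained regions sets these shares side by side.

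**Figure D3:**
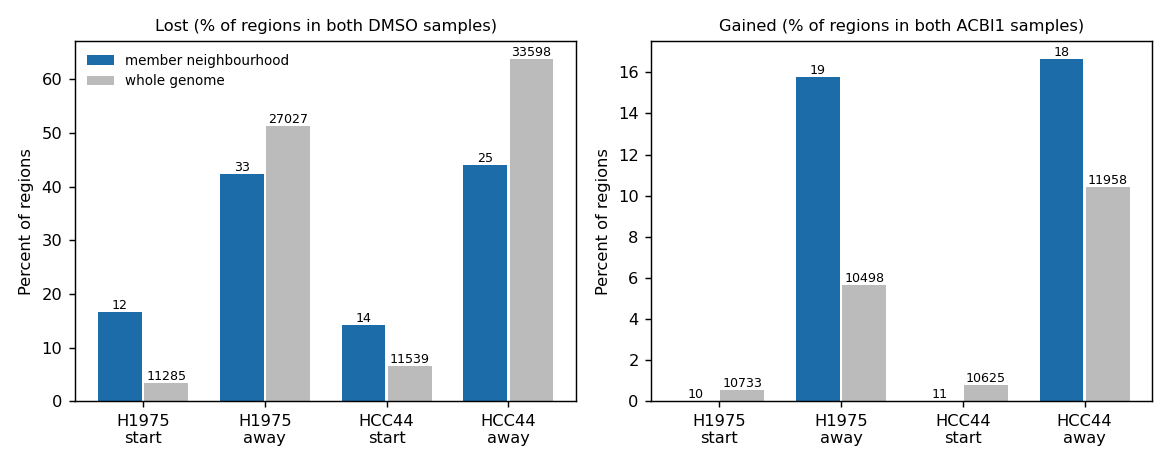
Percentage of regions lost (left, of those in both DMSO samples) and gained (right, of those in both ACBI1 samples) in the neighbourhood of the members and in the whole genome, at and away from start sites in each line; the number above a bar is how many regions it is a percentage of. Away from start sites the neighbourhood bars for loss are the lower of each pair, and at start sites the higher.

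The S100A genes held most of the start-site peaks: 10 of the 16 had one, and SPRR1B was the only other member with one in any sample. S100A10, S100A11, S100A6, S100A2, S100A16, S100A13 and S100A1 had a start-site peak in all 8 samples. S100A4, whose product metastasin binds non-muscle myosin, had one in 7 samples and lacked it in replicate 2 of H1975 with ACBI1. S100A12, which encodes the neutrophil protein calgranulin C, and S100A3, whose product is abundant in the hair cuticle, had one in all 4 DMSO samples and in no ACBI1 sample. Of the 10 members with a start-site peak in both DMSO samples of a line, 2 therefore lost it in each line, the same 2 genes, against 2.07% of such genes in H1975 and 4.69% in HCC44. No member gained a start-site peak, against 0.593% of genes in H1975 and 0.761% in HCC44. A start-site peak in both DMSO samples was listed for 59.9% of all protein-coding genes in H1975 and 60.9% in HCC44, and for 10 of the 53 members in each.

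The start-site peaks that were absent with ACBI1 were of middling rank with DMSO in H1975 and ranked higher in HCC44. By -log10 q, S100A12 stood at percentiles 49.7 and 56.3 of the H1975 lists and 70.8 and 66.5 of the HCC44 lists. S100A3 stood at 50.5 and 39.5 in H1975 and at 64.1 and 70.0 in HCC44. In the DMSO samples the -log10 q of the S100A12 start-site peak was 39.7 and 45.9 (H1975) and 44.9 and 37.6 (HCC44). That of S100A3 was 40.2 and 33.4 (H1975) and 39.8 and 39.7 (HCC44). S100A4 had 38.3 and 44.5 with DMSO in H1975 and 18.6 in the 1 ACBI1 sample that listed it. In HCC44 it had 29.9 and 30.4 with DMSO against 19.2 and 20.3 with ACBI1. The lists give these scores as the authors' values for each peak, and a score depends on read depth, so no change is read from it between lists.

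Among the retained start sites, S100A13, S100A1, S100A16 and S100A2 carried the highest scores in H1975. S100A13 encodes a protein involved in the release of growth factors that lack a signal peptide. Its start-site peak had a -log10 q of 226 and 228 with DMSO against 247 and 187 with ACBI1 in H1975, and of 135 and 113 with DMSO against 119 and 122 with ACBI1 in HCC44. This region (chr1:153633495-153634537) also overlaps CHTOP, a gene for a chromatin-bound RNA-export factor, so it cannot be given to S100A13 alone. S100A1, a calcium sensor of heart and skeletal muscle, had 137 and 125 with DMSO against 93.2 and 58.5 with ACBI1 in H1975, and 113 and 91.7 with DMSO against 52.4 and 53.5 with ACBI1 in HCC44. Its peak overlaps S100A13 and was assigned to that gene. S100A16, a widely made S100 protein, had 148 and 125 with DMSO against 93.2 and 52.0 with ACBI1 in H1975. In HCC44 it had 59.9 and 41.2 with DMSO against 25.1 and 20.6 with ACBI1. S100A2, a p53 and p63 target of basal epithelium, had 111 and 89.1 with DMSO against 97.8 and 59.2 with ACBI1 in H1975. In HCC44 it had 64.4 and 50.8 with DMSO against 32.7 and 29.6 with ACBI1.

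The S100 genes with broad expression in epithelium and carcinoma made up the rest. S100A10 encodes p11, the partner of annexin A2. Its start-site peak had a -log10 q of 46.2 and 46.1 with DMSO against 58.6 and 38.4 with ACBI1 in H1975, and of 29.3 and 21.8 with DMSO against 28.0 and 25.8 with ACBI1 in HCC44. S100A11, or calgizzarin, binds annexin A1. It had 60.4 and 79.8 with DMSO against 65.2 and 47.9 with ACBI1 in H1975, and 59.8 and 46.6 with DMSO against 33.1 and 27.7 with ACBI1 in HCC44. S100A6, or calcyclin, had 56.8 and 51.5 with DMSO against 66.2 and 27.4 with ACBI1 in H1975, and 59.3 and 48.1 with DMSO against 44.1 and 38.2 with ACBI1 in HCC44. Among the start-site peaks held in every sample, the scores of the treatments overlapped in H1975 for S100A10, S100A11, S100A6, S100A13 and S100A2. In HCC44 they overlapped for S100A10 and S100A13. A score depends on read depth, so for the other genes too no change is read from it.

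The 7 members with a start-site peak in all 8 samples fell into 2 kinds of promoter. A promoter window of 300 bases (250 before and 50 after the start) could be matched for 50 members, and 15841 protein-coding genes had one. The ratio of observed to expected CpG dinucleotides had a median of 0.128 in the members and 0.761 in all genes. Only S100A10, S100A11, S100A6 and S100A13 were above 0.3, with ratios of 0.84, 0.78, 0.87 and 0.85, and each had a peak at that start in all 8 samples. The other 46 windows were under 0.3. Of these, S100A2 and S100A1, with ratios of 0.19 and 0.20, also had a peak there in all 8 samples, and 39 had a peak in none. These are shares of 4.35% and 84.8%, against 5.75% and 81.2% of all genes with a ratio under 0.3. S100A16, at 0.12, had a peak at this start in 4 samples; the one held in all 8 lay at another listed start inside the gene.

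Over the whole genome a larger share of the promoters with few CpG dinucleotides lost their peaks. Of genes with a ratio under 0.3 and a peak at the start in both DMSO samples, 22.9% lost it in H1975 and 35.0% in HCC44, against 1.04% and 2.67% of genes with a ratio of 0.3 or more. Among the members with a ratio under 0.3 the losses, S100A12 at 0.053 and S100A3 at 0.21, were 2 of 5 in H1975 and 2 of 6 in HCC44. Of the 4 members with the higher ratio none lost the peak. The limit of 0.3 was chosen after the data were seen.

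**Figure D4:**
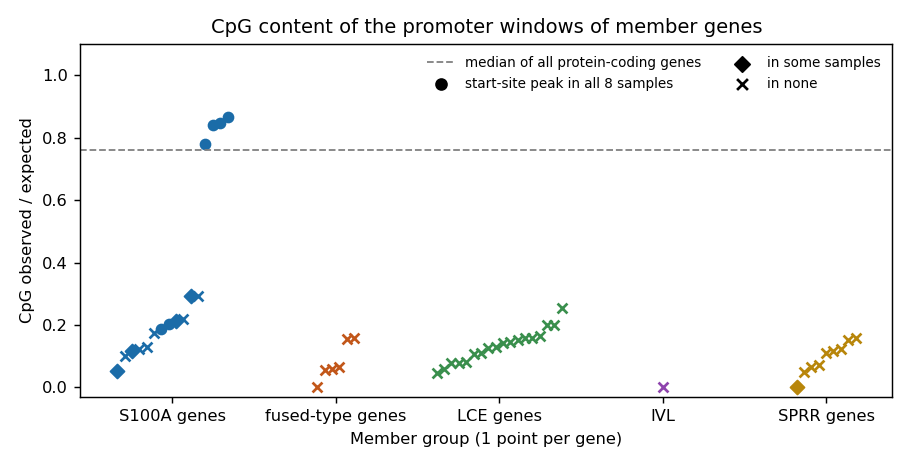
Ratio of observed to expected CpG dinucleotides in the promoter window of each of 50 member genes, by group; circles mark a peak within 1 kb of that start in all 8 samples, diamonds in some and crosses in none, and the dashed line is the median of all protein-coding genes (0.761). The 4 genes above the line are S100A10, S100A11, S100A6 and S100A13, and all 4 are circles.

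The motifs divided the groups. TGANTCA was found in 15 of the 50 windows (30%), against 5.7% of all windows of this length. It was present in 5 of 6 fused-type genes, 6 of 9 SPRR genes, 3 of 16 S100A genes and the 1 IVL window, and in 0 of 18 LCE genes. TATAAA was found in 28 windows (56%, against 9.75%), including 8 of 9 SPRR and 9 of 18 LCE genes. GGAATG was found in 13 (26%, against 11.8%), and GGGCGG in 7 (14%, against 58.3%). None of the 28 members with TATAAA had a peak at that start in all 8 samples, and 26 of them (92.9%) had one in no sample. Of all genes with TATAAA, 26.9% had a peak in all 8 samples and 62.0% in none.

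Counting all assigned peaks, those at start sites included, S100A10 had the most, 8 and 8 with DMSO against 7 and 6 with ACBI1 in H1975, and 8 and 8 with DMSO against 7 and 5 with ACBI1 in HCC44. Its counts with ACBI1 were below those with DMSO in both lines. S100A13 had 5 and 6 with DMSO against 5 and 5 with ACBI1 in H1975, and 6 and 6 with DMSO against 7 and 5 with ACBI1 in HCC44. These include the start sites of SNAPIN, ILF2 and NPR1, which lie within 50 kb and are no members. S100A11 had 3 or 4 in every sample, and the treatments overlapped.

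S100A6 and S100A16 differed more. S100A6 had 5 and 5 with DMSO against 3 and 3 with ACBI1 in H1975, and 3 and 3 with DMSO against 3 and 2 with ACBI1 in HCC44, so that with DMSO it had more in H1975. S100A16 had 3 and 3 with DMSO against 2 and 2 with ACBI1 in H1975, and 3 and 4 with DMSO against 1 and 2 with ACBI1 in HCC44. S100A2 had 2 and 3 with DMSO against 1 and 2 with ACBI1 in H1975, and 2 in each HCC44 sample. S100A7, or psoriasin, an antimicrobial protein that is high in psoriatic skin, had 2 and 1 with DMSO against 2 and 2 with ACBI1 in H1975. In HCC44 it had 1 and 1 with DMSO against 2 and 2 with ACBI1, 1 of 2 members with more peaks in that line. S100A8 and S100A9 encode the subunits of calprotectin. S100A8 had no peak, and S100A9 had 0 and 0 with DMSO against 1 and 1 with ACBI1 in H1975 and 1 in each HCC44 sample. S100A1, S100A5, S100A7A and S100A14 had none assigned.

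The fused-type genes had distal peaks and no start-site peak. They held 6 and 7 peaks with DMSO against 7 and 5 with ACBI1 in H1975, and 6 and 11 with DMSO against 6 and 8 with ACBI1 in HCC44, and the treatments overlapped in both lines. CRNN (cornulin) had 1 and 2 with DMSO against 3 and 2 with ACBI1 in H1975, and 2 and 3 with DMSO against 3 and 4 with ACBI1 in HCC44. RPTN (repetin) had 3 and 3 with DMSO against 2 and 1 with ACBI1 in H1975, and 3 and 4 with DMSO against 1 and 1 with ACBI1 in HCC44. RPTN was the 1 fused-type gene with fewer peaks with ACBI1 in each line. TCHH (trichohyalin, of the hair root sheath) had 1 in every sample, inside the gene. FLG (filaggrin) and FLG2 had 1 each, in replicate 2 of HCC44 with DMSO, and none in the other samples. HRNR (hornerin) had 1 in 6 samples, 0 in replicate 1 of HCC44 with DMSO and 2 in replicate 2 with ACBI1.

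The envelope precursors themselves were sparsely covered. The SPRR genes together held 7 and 5 peaks with DMSO against 3 and 3 with ACBI1 in H1975, and 4 and 4 with DMSO against 1 and 1 with ACBI1 in HCC44. The mean difference was -3.0 peaks in each line, with a spread of 0.707 between replicates over both (exact permutation p = 0.0556, the smallest possible). The mean went from 6 to 3 peaks in H1975 and from 4 to 1 in HCC44. Whole lists with ACBI1 held 0.59 times as many peaks as with DMSO in H1975 and 0.51 times in HCC44. Whether the SPRR counts fell beyond that was not tested. SPRR2E and SPRR2F had 1 peak each in all 4 H1975 samples and in both DMSO samples of HCC44, and none in HCC44 with ACBI1. SPRR1B had 2 and 1 with DMSO against 1 and 0 with ACBI1 in H1975, and 1 and 1 with DMSO against 0 and 0 with ACBI1 in HCC44. SPRR5 had 1 in both DMSO samples of H1975 and in 1 of HCC44, and none with ACBI1. SPRR2A had 1 peak in 1 sample. SPRR2G had 1 peak in 6 samples, at a region whose nearest gene was PRR9. SPRR4, SPRR1A, SPRR3, SPRR2D and SPRR2B had none.

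IVL had 1 peak in both DMSO samples of H1975 and in no other sample. It lay 1954 bases before the gene (chr1:152905973-152906592), with a -log10 q of 58.8 and 43.2. LCE5A had 4 and 3 with DMSO against 1 and 1 with ACBI1 in H1975, and 0 and 0 with DMSO against 1 and 1 with ACBI1 in HCC44. The HCC44 peaks of LCE5A were different regions in the 2 ACBI1 samples. LCE7A had 1 in every sample, at a region nearest to SMCP, a gene of the sperm mitochondrial capsule. LCE1F had 1 in 2 samples. The heat map of counts by member shows all 27 members with a peak.

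**Figure D5:**
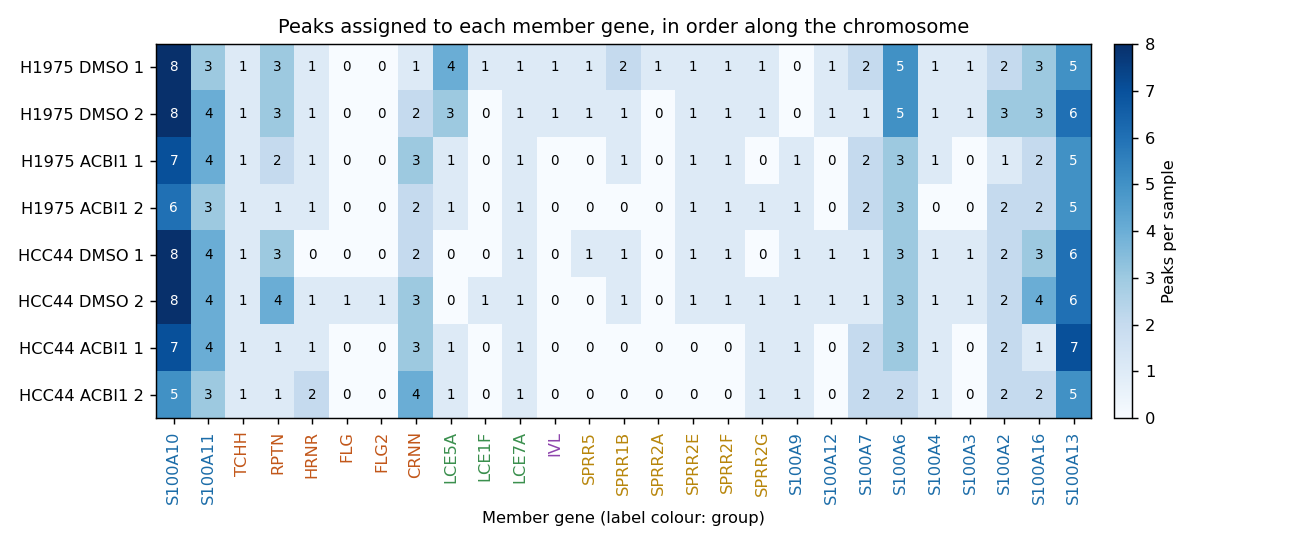
Number of peaks assigned to each of the 27 member genes with a peak (columns, in order along the chromosome, label colours marking the group) in each of the 8 samples (rows); darker blue is more peaks and the number is printed in each cell. S100A10 has the most peaks, with 8 in every DMSO sample, and S100A12 and S100A3 show 1 in every DMSO and 0 in every ACBI1 sample.

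Counted by member, 9 had fewer peaks in both ACBI1 than in both DMSO samples in H1975 and 1 had more. In HCC44, 8 had fewer and 2 had more, and 5 members had fewer in both lines: S100A10, RPTN, S100A12, S100A3 and S100A16. For all genes, each peak was given to its nearest gene of any kind, and 36.7% of the genes with a peak then had fewer in H1975 and 45.9% in HCC44, while 1.5% and 2.19% had more. Assigned in this way, 9 of the 22 members with peaks had fewer in H1975 and 7 of 22 in HCC44. Of the 24 with a peak in any sample, 4 had fewer in both lines (16.7%, against 25.4% of all genes), since the S100A10 counts then overlapped in HCC44, at 7 and 6 with DMSO against 6 and 4 with ACBI1. These shares, 40.9% and 31.8%, stand beside a median difference of -0.75 and -0.5 peaks in the members and -0.5 and -0.5 in all genes.

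The 3 lost regions of highest rank differed between the lines. In H1975 they were chr1:152517168-152517787, 4991 bases after LCE5A and nearer to CRCT1, with a -log10 q of 79.2 and 73.1; chr1:151976902-151977129, 5786 bases from S100A10, with 51.3 and 56.1; and the IVL region. None of these 3 had a peak in HCC44. In HCC44 they were chr1:152167766-152168560, 8538 bases before the start of RPTN, with 75.1 and 63.8; chr1:153597185-153597660, 9223 bases from S100A16, with 52.9 and 55.4; and chr1:152162873-152163277, 3645 bases before RPTN, with 54.6 and 50.8. The first of these was kept in H1975, where its -log10 q was 88.1 and 94.5 with DMSO against 27.9 and 17.3 with ACBI1. The last, 3645 bases before RPTN, was lost in H1975 as well, where its -log10 q with DMSO was 50.2 and 46.6.

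Over the 74 regions, 15 had a peak in all 8 lists (20.3%, against 21.8% in the genome) and 6 were lost in both lines (8.11%, against 10.5%). These 6 were the start sites of S100A12 and S100A3, a region inside S100A10 (chr1:151988489-151989784), 2 regions before RPTN (chr1:152162873-152163277 and chr1:152182588-152183484) and one 27315 bases from S100A6 (chr1:153506838-153507284). A further 6 were lost in H1975 and had no peak in HCC44. The highest-ranked retained regions were, in both lines, the start region of S100A13 and CHTOP, the start of ILF2 and a distal region of S100A11. The last, 10550 bases before the start of S100A11, had a -log10 q of 226 and 195 with DMSO against 256 and 162 with ACBI1 in H1975. In HCC44 it had 99.3 and 69.3 with DMSO against 88.4 and 74.1 with ACBI1.

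The gained regions were weak in rank. In H1975 they lay 48499 bases from S100A10 and nearer to THEM4 (chr1:151933966-151934416, -log10 q 34.7 and 30.3), 2093 bases before S100A9 (chr1:153355438-153355761, 26.8 and 25.9) and 14314 bases from S100A10 (chr1:151967923-151968601, 27.2 and 18.4). The last was listed in all 4 HCC44 samples. In HCC44 they lay 34381 bases before S100A7 (chr1:153495032-153495684, 22.4 and 19.6), 26067 bases from HRNR (chr1:152185525-152186009, 19.2 and 18.6) and 9956 bases before S100A10 (chr1:152003815-152004418, 11.8 and 14.9). Lost regions had ranked lower with DMSO than retained ones. Their median percentile within a list was 45.5 against 78.5 in H1975 and 67.3 against 78.7 in HCC44. Over the genome the medians were 35.3 against 73.6 and 43.0 against 70.1.

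The difference between the lines depended on how peaks were counted. With DMSO the log2 difference, HCC44 minus H1975, was -0.15 (exact permutation p = 0.333, spread 0.11 between replicates), although that of the whole lists was 0.25. With ACBI1 the difference was -0.019 (exact permutation p = 1.0), and its sign changed when replicate 1 of H1975 or replicate 2 of HCC44 was left out, to 0.061 or 0.042. Within 10 kb of a member the difference with DMSO was -0.34 (exact permutation p = 0.333, spread 0.020), while over all genes it was 0.20. With a fold enrichment of at least 5 the differences were -0.63 with DMSO and -1.60 with ACBI1, and with equal list lengths -0.28 and -0.11. The length covered by neighbourhood peaks was greater in HCC44, by 0.31 with DMSO and 0.39 with ACBI1 on the log2 scale (exact permutation p = 0.333 for each). The small sample does not allow a difference between the lines to pass the threshold.

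By region, 32 were held by all 4 DMSO samples. Of the 43 held by both H1975 DMSO samples, 7 were absent from both HCC44 ones (16.3%, against 18.1% in the genome). Of the 39 held by both HCC44 samples, 6 were absent from H1975 (15.4%, against 29.2%). With ACBI1 the counts were 5 of 28 (17.9%, against 18.1%) and 4 of 29 (13.8%, against 17.9%), and 19 were held by all 4. By member, LCE5A, IVL and S100A6 (3 of 53) had more peaks in both H1975 than in both HCC44 DMSO samples. The share of all genes with fewer in HCC44 was 13.4%. S100A9 had more in HCC44, against 27.7% of genes, but its HCC44 peaks were different regions in the 2 DMSO replicates. With DMSO these shares are of 15931 genes with a peak, with each peak given to its nearest gene of any kind. Assigned in this way, LCE5A, IVL and S100A6 still had more in H1975, out of 24 members with a peak in any sample. S100A9 then had 0 and 0 in H1975 against 1 and 0 in HCC44, and the lines overlapped. The 53 include members with no peak, so 3 of 53 is not a like measure. With ACBI1 SPRR2E and SPRR2F (2 of 53) had more in H1975, against 11.9% of 14751 genes with a peak. No member had more in HCC44 with ACBI1, against 13.3%.

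Genes that work with the members elsewhere in the genome varied widely. Of the 8 listed S100 genes on other chromosomes and S100 partners, 4 had a peak in each line, and the receptors AGER and TLR4 had none in any sample. ANXA2, the partner of S100A10, had 8 and 8 peaks with DMSO against 3 and 3 with ACBI1 in H1975, and 6 and 6 with DMSO against 3 and 4 with ACBI1 in HCC44. It kept its start-site peak in all 8 samples. ANXA1, the partner of S100A11, had 8 and 7 with DMSO against 3 and 3 with ACBI1 in H1975, and 9 and 9 with DMSO against 4 and 4 with ACBI1 in HCC44, and its start-site peak was absent from all 4 ACBI1 samples. Of the 17 cornified envelope genes and epidermal regulators on other chromosomes or elsewhere on chromosome 1, 9 of 14 with peaks had fewer with ACBI1 in H1975 and 13 of 16 in HCC44, with a median difference of -1.0 and -1.75 peaks. Over all genes 36.7% and 45.9% had fewer, with a median of -0.5 in each line. TP63, the master regulator of stratified epithelium, had 11 and 7 with DMSO against 3 and 1 with ACBI1 in H1975, and 7 and 6 with DMSO against 0 and 0 with ACBI1 in HCC44. GRHL3, which drives barrier formation, had 5 and 5 with DMSO against 1 and 1 with ACBI1 in H1975, and 8 and 6 with DMSO against 2 and 1 with ACBI1 in HCC44. In H1975 1 gene of this list had more, EVPL, with 1 and 1 under DMSO against 2 and 2 under ACBI1. Of 8 genes of the list with a start-site peak in both H1975 DMSO samples, 7 kept it and 0 lost it. In HCC44 6 of 9 kept it and 2 lost it. Over all genes 2.07% lost it in H1975 and 4.69% in HCC44. Of the 10 other genes of the complex, such as LORICRIN and KPRP, 4 had a peak in each line and none had one at a start site; 1 had fewer peaks in H1975 and 0 in HCC44.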

How the data were processed

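ATAC-seq peak lists of 8 samples were used, 1 per sample. Per the submitters' processing notes reads were aligned with BWA to hg38; the peak caller and its settings are not given in the sources used here. The authors deposited, for each peak, a fold enrichment (a ratio over background), a -log10 p and a -log10 q, in broadPeak layout without a header; no read counts come with them, so the depth behind a value is unknown. Gene spans and start sites came from RefSeq tables on GRCh38.p14, which pair gene names with coordinates; the strand was listed for 50 members, and for LCE1B, SPRR2D and SPRR2E both ends stood in for the start. Peaks within 50 kb were assigned to the nearest member, and regions were merged where peaks overlapped by 1 bp or more. Numbers of peaks and shares were compared over samples by exact two-sided permutation tests, within lines (6 arrangements) or over both lines (36); counts of genes and regions have no test and stand beside the same count over the genome. Promoter windows and sequences were 1 per gene, the one nearest the gene's end. The scripts (Python 3.11.15, pandas 2.3.3, numpy 2.4.6, scipy 1.17.1) were tested on simulated data. Members described in every sample were those with a start-site peak and the 10 with the most assigned peaks; named regions were the 3 of highest -log10 q rank per line and class. The members and gene lists were chosen with earlier results of these data known. The 50 kb limit left the farthest region inside at 48489 bases (S100A10) and the nearest outside at 64821 bases (S100A13). Alternatives were other score limits, distances, joining, assignment, equal list lengths, a replicate block and leaving out samples.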

Additional observations from a re-analysis of the deposited data

Results flagged for a closer look

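The number of peaks assigned to LCE5A went in opposite directions in the 2 lines: the mean with ACBI1 minus the mean with DMSO was -2.5 peaks in H1975 and 1.0 in HCC44. All H1975 samples with ACBI1 had fewer than those with DMSO, and all HCC44 samples with ACBI1 had more. In HCC44, however, the ACBI1 peaks were different regions, each listed in 1 replicate only. In replicate 1 the peak lay 30290 bases before LCE5A (-log10 q 21.3). In replicate 2 it lay 24159 bases before the gene (-log10 q 11.6). No region assigned to LCE5A was thus gained in HCC44. The difference between the lines was not tested.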

How the results depend on the processing

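With every list cut to 22133 peaks, the log2 difference in neighbourhood peaks turned to 0.067 in H1975, 0.23 in HCC44 and 0.15 over both lines, the members with fewer peaks numbered 3 in H1975 and 5 in HCC44, and 6 regions were lost in H1975; by construction this setting removes the difference in list length. With a fold enrichment of at least 5, 9 regions were lost in H1975, the log2 difference with ACBI1 was -1.46 in HCC44 and -0.98 over both lines, and the difference between lines was -0.63 with DMSO and -1.60 with ACBI1; the cause was not tested. Joining peaks within 1200 bp turned the difference between the lines with ACBI1 to 0.022. Leaving out 1 sample at a time gave -0.57 to -0.41 for H1975, -0.47 to -0.24 for HCC44, -0.48 to -0.37 over both, 0.0328 to 0.0410 percentage points for the share, -0.27 to -0.043 between lines with DMSO and -0.099 to 0.061 with ACBI1; members with fewer peaks then ranged from 11 to 12 (H1975) and from 8 to 11 (HCC44), and lost regions from 17 to 22 (H1975) and from 14 to 17 (HCC44). These counts of members and regions could only stay or rise when a sample was left out, because the rule then asks less. In all, 58 of the values under other settings and 46 of those with a sample left out kept their direction. For counts this meant within 1.5 times the main count, and several values had a very different size. Under other settings 4 values turned and 4 counts moved further, and with a sample left out 2 turned. The 58 include the replicate block, where no value could change, and the 46 include the counts that could not fall. The share difference was 0.0158 percentage points with a fold enrichment of at least 5 and 0.0136 with equal list lengths (exact permutation p = 0.111 for each), 0.0240 with peaks given to the nearest of all genes and 0.0025 within 10 kb. With a replicate block the differences are the same by construction (-0.49, -0.36, -0.42, 0.0369, -0.15 and -0.019), with exact permutation p = 0.125 over both lines and 0.5 within one for treatment. Deviations of samples with the same replicate number correlated at 0.136 in H1975 and 0.033 in HCC44, so the number is not taken to pair the samples. Depth is unknown, and so is how many true regions each list misses.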
